A study of Homo sapiens with 6 samples.

Results

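Genes of the nuclear pore and of the receptors that carry cargo through it were examined in HT1080 cells with stable overexpression of PGK1. Members were the entries of the count table whose symbol begins with NUP, KPNA, KPNB, IPO, XPO or TNPO followed by a number. The rule found 46 of 21619 entries, 23 pore genes and 23 receptor genes, and it used no measured value. HT1080 is a human fibrosarcoma line. PolyA RNA was sequenced from 3 libraries of WT cells and 3 libraries of PGK1_OE cells, which stably overexpress phosphoglycerate kinase 1, a glycolytic enzyme. All libraries carry the same batch label. The labels do not say whether the WT cells hold an empty vector, whether the PGK1_OE line is 1 clone, or whether replicates were separate cultures, and the p-values therefore describe only how these libraries vary, which may be technical variation.

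The nuclear pore complex is a ring of nucleoporins set in the nuclear envelope. Scaffold rings, the Y complex and the inner ring, hold a central channel lined by disordered proteins rich in phenylalanine and glycine, and a cytoplasmic face and a nuclear basket project from it. Importins bind cargo in the cytoplasm and release it in the nucleus when they meet the GTP-bound form of the small GTPase Ran, while exportins take up cargo together with that form of Ran. Importin alpha proteins read the classical nuclear localisation signal and dock to importin beta, which KPNB1 encodes.

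Libraries held 34425162 to 40538274 counts. PGK1, the check of the labels, averaged 522.8 ± 4.03 in the WT libraries and 12660 ± 597 in the PGK1_OE libraries (CPM, counts scaled to library size after TMM normalisation, mean ± SD, n = 3). Summed mesenchymal markers (VIM, FN1, SPARC, CD44, S100A4 and COL6A1) ranged from 3120 to 3620 CPM in WT and from 5860 to 6000 CPM in PGK1_OE. Most of the sum came from VIM, which averaged 1890 CPM in WT and 3569 CPM in PGK1_OE. All 6 were detected, S100A4 at only 1.14 CPM in WT and 1.40 CPM in PGK1_OE on average. The 5 blood markers summed to at most 0.511 CPM, with PTPRC and CD14 at 0 counts in all libraries. The 5 epithelial markers summed to 4.73 to 5.91 CPM in WT and 1.12 to 3.35 CPM in PGK1_OE, with EPCAM at 0 counts throughout. The 4 endothelial markers summed to 4.13 to 5.38 CPM in WT and 10.1 to 13.3 CPM in PGK1_OE, mostly from PECAM1. The part of these differences in the results was not tested. In bulk RNA, fewer cells of a type and less RNA per cell cannot be told apart.

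Most of the pore genes found by symbol were higher in PGK1_OE, whereas the receptor genes found by symbol moved in both directions in equal number. Of 20 pore genes tested, 14 rose and 4 fell (edgeR's quasi-likelihood test, Benjamini-Hochberg adjusted p under 0.05 over all entries). Of 22 receptor genes tested, 9 rose and 9 fell. Among all 14322 entries tested 71.2% were called, 35.4% higher and 35.8% lower, so a high number of calls is not in itself a feature of these genes. Against that background, 70% of the pore genes and 40.9% of the receptor genes were called higher, and 20% and 40.9% were called lower. The median log2 fold change was 0.48 for the pore genes, 0.065 for the receptor genes and -0.018 for all entries. No test was made of the difference between the classes. Pore proteins with other names, given below, had a median of 0.07, and Ran cycle genes with receptors named otherwise had 0.35. The latter list holds mostly Ran cycle genes, and its receptors ranged from -0.98 (XPOT) to 1.30 (CSE1L). The contrast was computed only for the members found by symbol. It was not computed for wider sets of pore and receptor genes.

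Changes were mostly modest. NUP85, NUP205, NUP188 and KPNA2 rose at least 2-fold, and no member fell that far, while 24.1% of all entries changed at least 2-fold, 12.0% upward and 12.1% downward. The median size of the log2 fold change, regardless of sign, was 0.48 over the 42 members tested and 0.56 over all entries. The PGK1_OE and WT libraries did not overlap in CPM for 37 of the 42, where 76.4% of all entries did not overlap. Pore genes together held 0.167%, 0.160% and 0.160% of all counts in WT replicates 1, 2 and 3, and 0.199%, 0.211% and 0.209% in PGK1_OE replicates 1, 2 and 3. Receptor genes held 0.481%, 0.475% and 0.477% in WT and 0.493%, 0.511% and 0.504% in PGK1_OE. Both shares were higher in every PGK1_OE library than in any WT library. The difference in the receptor share rests largely on KPNA2, which averaged 205 CPM in WT and 498 CPM in PGK1_OE. With 9 receptor genes called higher and 9 called lower, it is not a rise of the receptor genes as a whole.

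**Figure D1:**
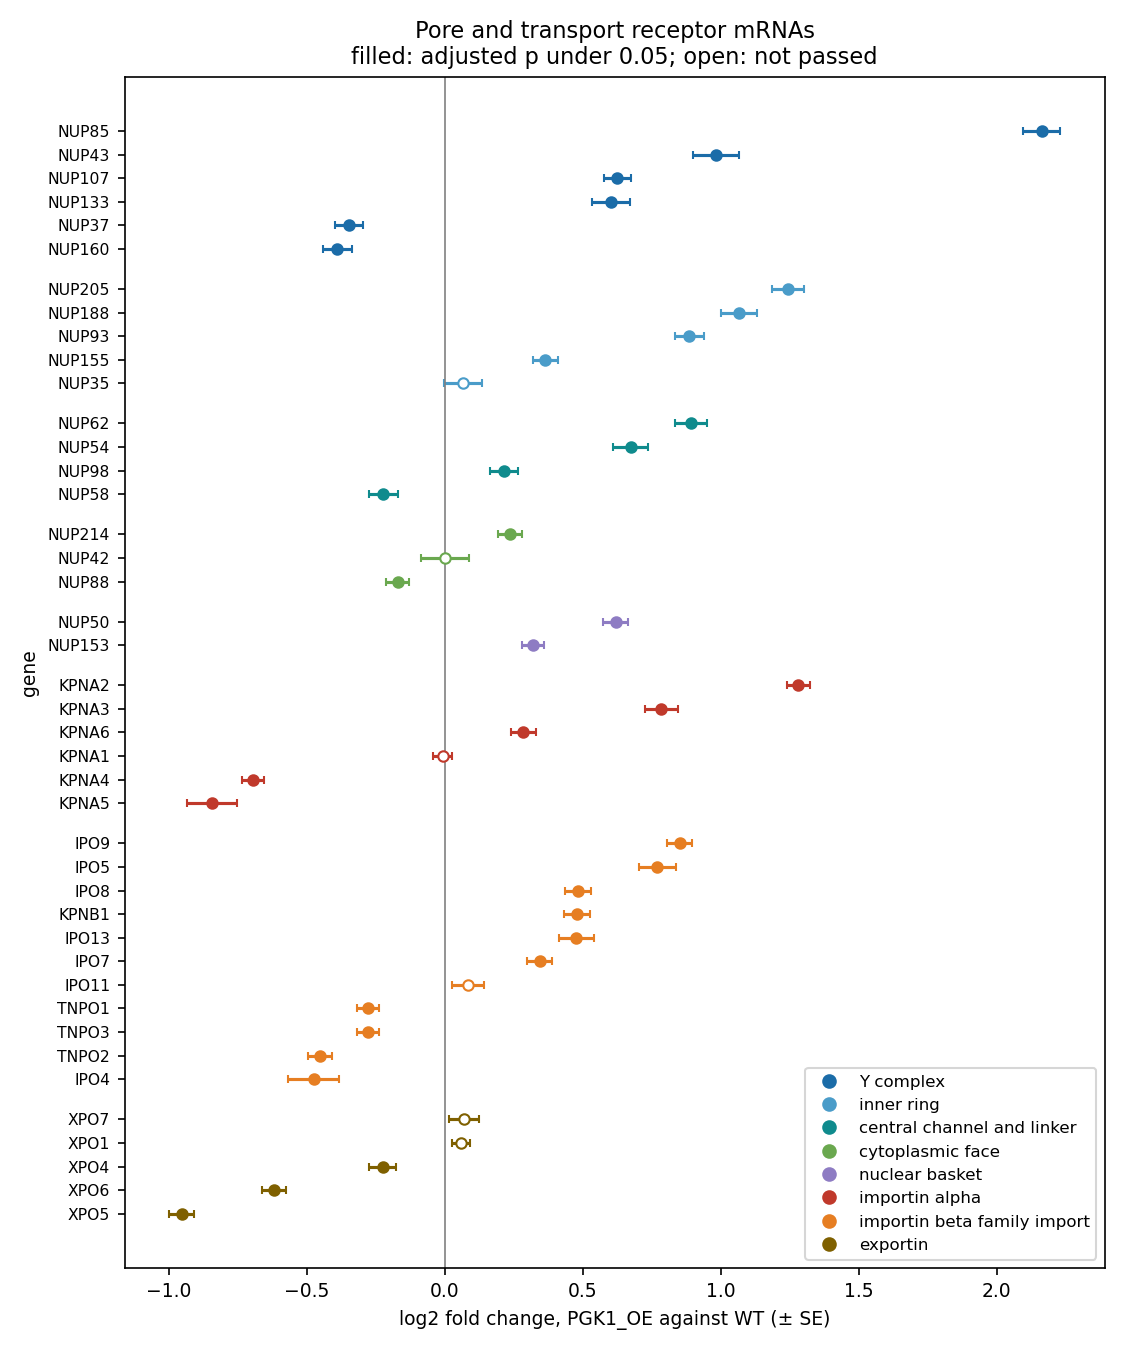
Log2 fold change of each tested member, PGK1_OE against WT (x axis), with genes on the y axis grouped and coloured by role; points are edgeR estimates, bars are standard errors, and open points did not pass an adjusted p of 0.05. NUP85 stands farthest to the right at 2.16 and XPO5 farthest to the left at -0.95.

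Levels below are normalised CPM in replicates 1, 2 and 3 of each group in that order, and values in parentheses are log2 fold changes of PGK1_OE over WT with their standard error (SE). The Y complex, the outer scaffold ring, had 6 tested members, of which NUP85, NUP43, NUP107 and NUP133 rose and NUP160 and NUP37 fell. NUP85 (chromosome 17, 75205659 to 75235758, plus strand) stood at 13.2, 11.7 and 13.1 CPM in WT and at 57.7, 56.8 and 55.9 CPM in PGK1_OE. That is a 4.48-fold rise (log2 fold change 2.16, SE 0.07, edgeR adjusted p = 1.81e-10), and among the members no other gene changed as much. NUP43, a beta-propeller subunit, went from 57.1, 44.8 and 50.5 to 95.7, 106 and 99.6 CPM (0.98, SE 0.08), with no overlap between the groups. NUP107 rose by 0.63 (SE 0.05) and NUP133 by 0.60 (SE 0.07).

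Their scaffold partner NUP160 (chromosome 11, 47778087 to 47848555, minus strand) went the other way, from 123, 123 and 118 to 91.6, 99.2 and 87.0 CPM. Every PGK1_OE library lay below the WT range (-0.39, SE 0.05, edgeR adjusted p = 3.11e-05). NUP37, another propeller, went from 89.6, 82.0 and 83.1 to 65.8, 65.2 and 69.5 CPM (-0.34, SE 0.05). The mRNAs for subunits of this ring thus moved in opposite directions.

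Inner ring genes rose in 4 of 5 cases (80%) and none fell, where 35.4% and 35.8% of all entries were called higher and lower. NUP205 (chromosome 7, 135557919 to 135648757, plus strand), a large solenoid scaffold protein, had 83.4, 71.0 and 80.0 CPM in WT and 180, 186 and 190 CPM in PGK1_OE (1.24, SE 0.06, edgeR adjusted p = 3.93e-09). Its paralogue NUP188 (chromosome 9, 128947699 to 129007096, plus strand) went from 54.1, 57.8 and 52.4 to 103, 122 and 118 CPM (1.07, SE 0.07). NUP93, which anchors both of these to the ring, went from 45.7, 42.4 and 44.0 to 77.6, 83.2 and 83.6 CPM (0.89, SE 0.05). All 3 therefore lay well above WT in every PGK1_OE library. NUP155 rose less (0.36, SE 0.05), and NUP35, a membrane-binding subunit, was at 0.07 (SE 0.07, edgeR adjusted p = 0.402) with overlapping libraries.

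In the central channel NUP62 and NUP54, which form a trimer with NUP58, rose, and NUP58 fell. NUP62 went from 58.8, 52.0 and 55.5 to 97.3, 109 and 102 CPM (0.89, SE 0.06), and NUP54 rose by 0.67 (SE 0.06). NUP58 went from 203, 195 and 186 to 154, 176 and 171 CPM (-0.22, SE 0.05, edgeR adjusted p = 0.00295). NUP98, whose transcript also encodes the Y-complex protein NUP96, changed little, from 198, 177 and 178 to 209, 210 and 222 CPM (0.21, SE 0.05, edgeR adjusted p = 0.00226), although its libraries did not overlap.

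Both nuclear basket genes rose. NUP153 had 138, 129 and 137 CPM in WT and 168, 171 and 167 CPM in PGK1_OE (0.32, SE 0.04), and NUP50, which helps to release importin alpha from its cargo, rose by 0.62 (SE 0.05). On the cytoplasmic face, where exported cargo leaves the pore, NUP214 rose by 0.24 (SE 0.04). Its binding partner NUP88 fell, from 114, 112 and 113 to 102, 103 and 96.2 CPM (-0.17, SE 0.04). NUP42 was at 0.0009 (SE 0.09, edgeR adjusted p = 0.993).

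The remaining pore members were at or near 0. NUP210, which encodes a membrane glycoprotein of the pore, had 34 counts in all WT libraries together and 13 in the PGK1_OE libraries. NUP210L had 2 counts, all in PGK1_OE replicate 3, and NUP62CL had 0 counts in all 6 libraries, which allows up to 0.0133 CPM over the pooled libraries (3 counts, counting error only). None of these 3, nor the receptor KPNA7 with 22 counts in WT and 24 in PGK1_OE, passed the low-count filter.

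**Figure D2:**
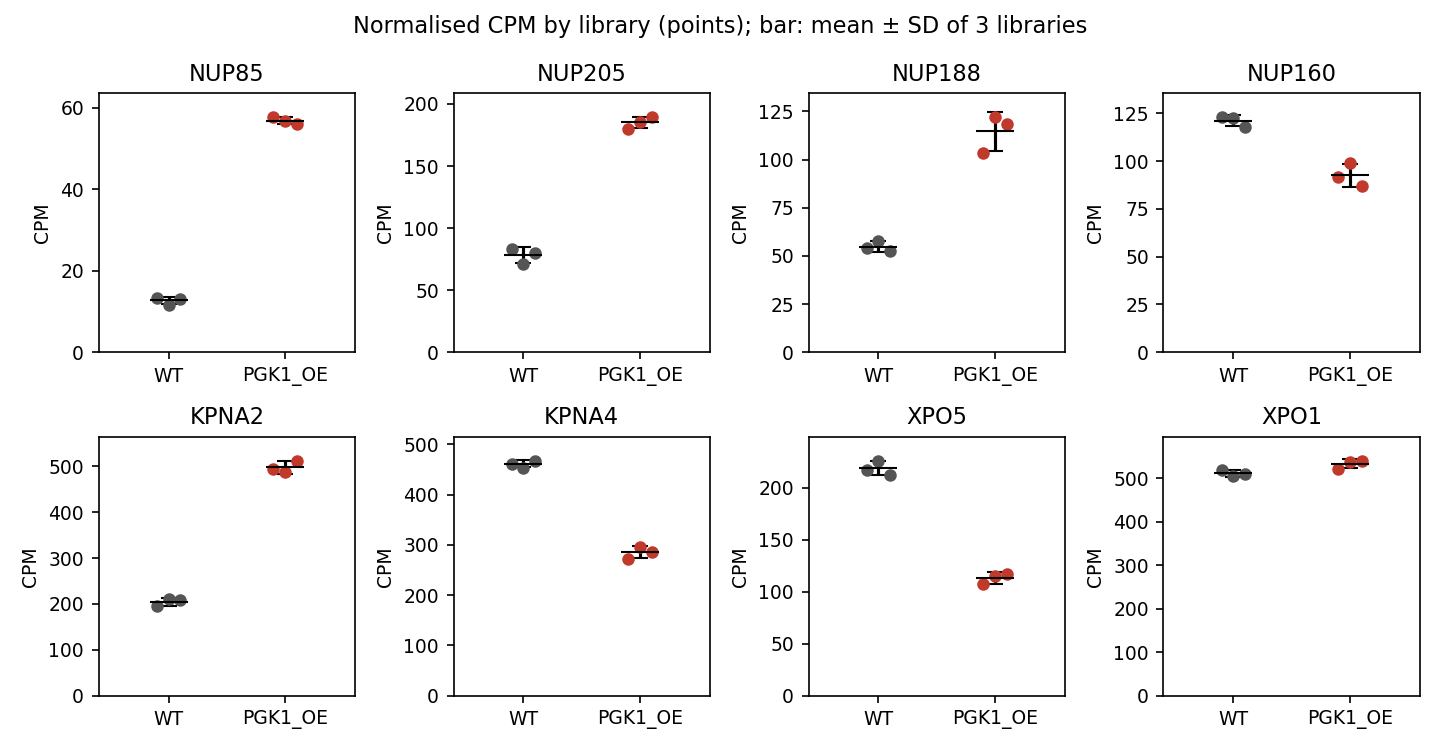
Normalised CPM (y axes, from 0) of 4 pore and 4 receptor genes in the WT and PGK1_OE libraries (x axes); points are libraries, and bars show the mean ± SD of 3. NUP85, NUP205, NUP188 and KPNA2 lie higher in all PGK1_OE libraries, NUP160, KPNA4 and XPO5 lie lower, and XPO1 lies between 504 and 541 CPM in all 6.

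Importin alpha genes diverged most within a receptor group, with KPNA2, KPNA3 and KPNA6 rising, KPNA4 and KPNA5 falling, and KPNA1 not passing. KPNA2 (chromosome 17, 68035519 to 68046842, plus strand), the isoform typical of proliferating cells, had 195, 211 and 209 CPM in WT and 493, 487 and 513 CPM in PGK1_OE. This is a 2.43-fold rise (1.28, SE 0.04, edgeR adjusted p = 2.70e-10). All 10 genes of a proliferation list, BIRC5, TOP2A and CDK1 among them, rose as well (median log2 fold change 1.76). Among all entries 35.4% were called higher. The part of these 10 genes in the rise of KPNA2 and the pore genes was not tested.

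KPNA3 and KPNA4 encode close paralogues and moved in opposite directions. KPNA3 went from 98.4, 86.7 and 92.7 to 147, 170 and 162 CPM (0.79, SE 0.06). KPNA4 (chromosome 3, 160494995 to 160565588, minus strand) went from 462, 454 and 468 to 272, 296 and 287 CPM (-0.69, SE 0.04, edgeR adjusted p = 2.07e-08). In neither gene did the groups overlap.

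In the third importin alpha subfamily KPNA5 went from 21.9, 22.4 and 21.1 to 12.4, 13.0 and 11.1 CPM (-0.84, SE 0.09). KPNA6 rose by 0.29 (SE 0.05), and KPNA1 averaged 203 ± 2.14 CPM in the WT libraries against 202 ± 2.99 CPM with PGK1 overexpression (-0.0077, SE 0.03, edgeR adjusted p = 0.853).

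Importins of the beta family rose in 6 of 11 cases (54.5%) and fell in 4 (36.4%). Among all entries 35.4% were called higher and 35.8% lower, so the share that fell was near that of all entries. KPNB1 (chromosome 17, 47649476 to 47685505, plus strand), the beta partner of importin alpha, had 436, 400 and 447 CPM in WT and 573, 604 and 612 CPM in PGK1_OE (0.48, SE 0.05, edgeR adjusted p = 2.03e-06). IPO9, an importer of core histones, went from 90.8, 85.7 and 82.9 to 153, 157 and 158 CPM (0.85, SE 0.04). IPO5, which carries ribosomal proteins among other cargo, went from 230, 188 and 208 to 348, 370 and 350 CPM (0.77, SE 0.07). Both lay above the WT range in every PGK1_OE library.

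The paralogues IPO7 and IPO8 rose together. IPO8 went from 79.6, 81.1 and 78.1 to 105, 115 and 114 CPM (0.48, SE 0.05), and the more abundant IPO7 rose by 0.34 (SE 0.05). IPO13, which both imports and exports, rose by 0.48 (SE 0.06). IPO11 was at 0.08 (SE 0.06, edgeR adjusted p = 0.209).

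All 3 transportin genes fell, and so did IPO4. Transportins carry RNA-binding proteins, and TNPO3 carries splicing factors rich in serine and arginine. TNPO2 went from 106, 113 and 114 to 81.1, 80.8 and 82.3 CPM (-0.45, SE 0.04), its paralogue TNPO1 fell by 0.28 (SE 0.04) and TNPO3 by 0.28 (SE 0.04). IPO4 went from 165, 170 and 167 to 126, 133 and 102 CPM (-0.47, SE 0.09). PGK1_OE replicate 3 was the lowest of the IPO4 values, and the libraries did not overlap.

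None of the 5 genes with XPO symbols was called higher and 60% were called lower, where 35.4% and 35.8% of all entries were. XPO5 (chromosome 6, 43522330 to 43576075, minus strand), which exports precursors of microRNAs, had 217, 226 and 212 CPM in WT and 107, 115 and 117 CPM in PGK1_OE. This is a 1.94-fold fall (-0.95, SE 0.05, edgeR adjusted p = 4.98e-09), the largest among the tested members. XPO6, the exporter of actin, went from 296, 307 and 279 to 192, 196 and 186 CPM (-0.62, SE 0.04), and XPO4 fell by 0.22 (SE 0.05).

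XPO1 (chromosome 2, 61477849 to 61538626, minus strand), the general exporter of proteins with leucine-rich signals, did not pass. Its values were 520, 504 and 510 CPM in WT and 522, 537 and 541 CPM in PGK1_OE (0.06, SE 0.03, edgeR adjusted p = 0.131), so the PGK1_OE libraries lay just above the WT libraries. XPO7 was at 0.07 (SE 0.05, edgeR adjusted p = 0.272).

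Levels of different genes were compared on the FPKM scale, which divides by gene length. KPNA2 was the member with the highest mean FPKM in both groups, at 96.6 ± 4.51 in WT and 228 ± 2.74 in PGK1_OE. In WT its neighbours in the order, IPO7 at 93.5 ± 5.27 and XPO1 at 89.5 ± 10.2, lay within the spread between libraries. In PGK1_OE the next were IPO7 at 115 ± 0.999, XPO1 at 97.0 ± 11.4 and KPNB1 at 92.3 ± 0.363, of which XPO1 lay within its spread of KPNB1, and KPNA2 stood clear of all 3. XPO5 moved from rank 11 to rank 25 of the 46 members. Among the pore genes NUP37 (43.3 ± 9.58) and NUP58 (37.3 ± 1.35) had the highest means in WT, and NUP58 (33.9 ± 2.27) and NUP98 (31.0 ± 0.671) in PGK1_OE, but the values within each pair overlapped between libraries and their order was turned in 1 library of the group. The lowest tested member was KPNA5 in both.

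As a share of the summed importin alpha FPKM, KPNA2 held 44.3%, 39.4% and 44.3% in WT and 65.3%, 62.0% and 64.3% in PGK1_OE. KPNA4 held 23.7%, 35.0% and 23.4% in WT and 13.4%, 15.0% and 14.2% in PGK1_OE, and KPNA1 held 14.6 ± 1.64% and 8.34 ± 0.408%. The groups did not overlap for any of these 3 genes. All these shares include the FPKM of KPNA4, which did not follow its counts in every library, as given below. On raw counts, which are not divided by length, KPNA2 held 19.2 ± 0.823% in WT and 39.6 ± 1.17% in PGK1_OE. KPNA3 kept 9.23 ± 1.48% in WT and 9.69 ± 0.509% in PGK1_OE, a difference within the spread. With 3 libraries against 3 an exact permutation test cannot give a two-sided p under 0.10, and none is given here.

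**Figure D3:**
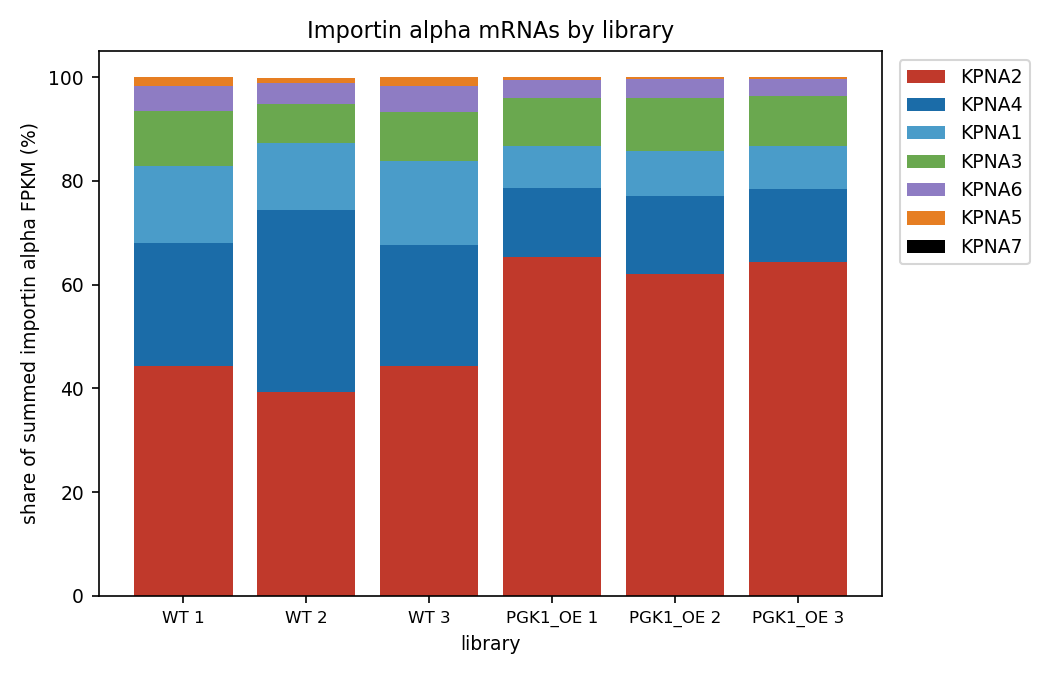
Share of each importin alpha gene in the summed importin alpha FPKM (y axis, %) in each of the 6 libraries (x axis), stacked by gene. KPNA2 takes 39.4% to 44.3% in the WT libraries and 62.0% to 65.3% in the PGK1_OE libraries. All shares include KPNA4, whose FPKM in WT replicate 2 (90.2) stood apart from the other WT libraries.

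Levels of the 6 Y complex members lay closer together in PGK1_OE, a comparison made after the values were seen. The ratio of the highest to the lowest FPKM among these 6 genes was 6.74, 6.88 and 9.50 in WT and 3.26, 3.14 and 3.00 in PGK1_OE. The 9.50 of WT replicate 3 rests on NUP37, at 54.1 FPKM there. The length that links its counts to its FPKM was 1549 bases in that library and 2269 to 2338 in the others, so the 9.50 is uncertain. By mean FPKM the lowest in WT was NUP85 (5.65), although NUP133 was lowest in WT replicate 1, and in PGK1_OE NUP133 was lowest at 9.09 FPKM while NUP85 reached 25.6 FPKM. With SEC13 and SEH1L, subunits of the complex that the symbols do not capture, the ratio was 11.1, 12.2 and 11.3 in WT and 7.24, 7.35 and 6.65 in PGK1_OE, with SEC13 the highest in all 6 libraries. For the 5 inner ring genes the ratio was 3.50, 3.90 and 3.25 in WT and 2.94, 2.61 and 2.68 in PGK1_OE.

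Counts and FPKM gave different pictures for KPNA4. Its FPKM values were 49.5, 90.2 and 50.6 in WT and 46.8, 54.4 and 50.8 in PGK1_OE, which overlap, although its counts fell in every PGK1_OE library. Fitted on log2(FPKM + 1) with limma, KPNA4 changed by -0.26 (SE 0.25, adjusted p = 0.381) in place of -0.69. The length that links its counts to its FPKM was 9410, 5167 and 9335 bases in WT and 5742, 5353 and 5546 bases in PGK1_OE. WT replicate 2 thus resembled the PGK1_OE libraries in this length, and its FPKM stands apart from the other 2 WT libraries. For KPNA2 the same length stayed between 2123 and 2200 bases in all 6 libraries.

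NUP37 had a similar gap in 1 library, with 2278, 2337 and 1549 bases in WT and 2269, 2327 and 2338 bases in PGK1_OE, and its FPKM of 54.1 in WT replicate 3 was the highest of the 6. The FPKM fit gave NUP37 a log2 change of -0.57 (SE 0.14, limma adjusted p = 0.00809), in the same direction as its counts. For KPNA5 this length also varied, at 6454, 9396 and 5442 bases in WT and 5834, 8993 and 7524 bases in PGK1_OE. For XPO1 it ran from 5038 bases in PGK1_OE replicate 2 to 6524 bases in WT replicate 1. Of the 42 members in both fits, KPNA4 alone differed by more than 0.25 between them on the log2 scale. NUP98 and NUP58 passed on counts but not on FPKM (limma adjusted p = 0.0838 and 0.0593). The tool that made the FPKM is not given in the sources used here, and the cause of these gaps was not tested.

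**Figure D4:**
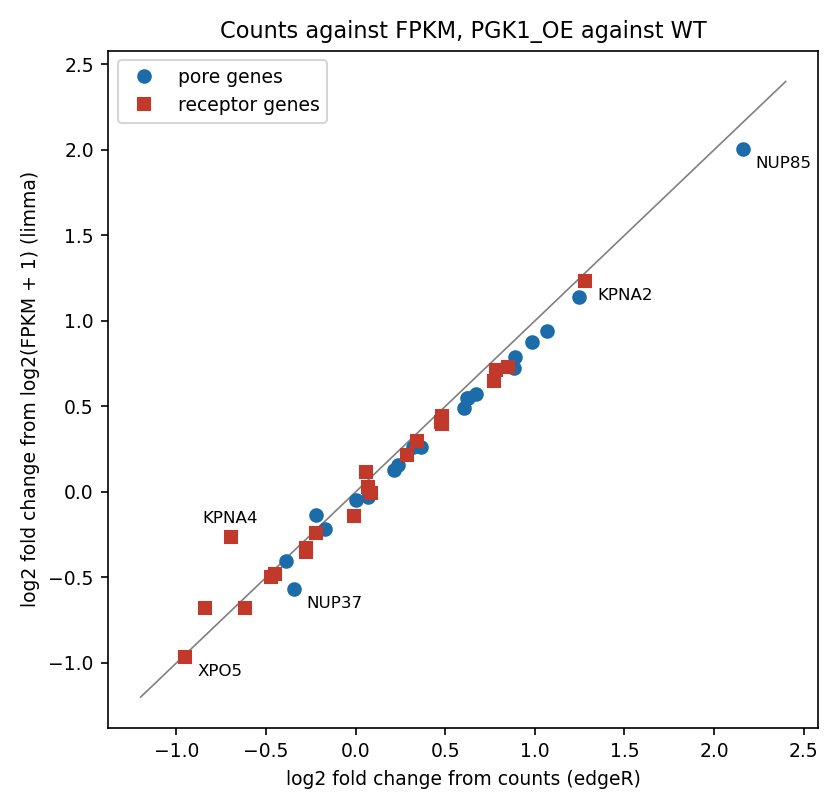
Log2 fold change from counts (edgeR, x axis) against that from log2(FPKM + 1) (limma, y axis) for the 42 tested members, circles for pore and squares for receptor genes, with the line of equal values in grey. KPNA4 lies farthest from the line, at -0.69 from counts and -0.26 from FPKM.

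Pore proteins that carry other names were mixed. Of 13 symbols listed, 11 were in the table and tested, and NUPL1 and NUPL2 were not found under those symbols. Of the 11 tested, 5 rose and 3 fell (median 0.07). That is 45.5% and 27.3%, where 35.4% and 35.8% of all entries were called higher and lower. NDC1, a membrane anchor of the pore, rose from 61.5 to 156 CPM (1.34, SE 0.04) and GLE1, a cofactor of mRNA release at the cytoplasmic face, from 32.9 to 66.8 CPM (1.02, SE 0.06). RAE1, an mRNA export factor that binds NUP98, fell from 119 to 55.2 CPM (-1.11, SE 0.05).

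Of 11 genes of the Ran cycle and of receptors named otherwise, 8 rose and 1 fell (median 0.35). That is 72.7% and 9.09%, where 35.4% and 35.8% of all entries were called higher and lower. CSE1L, the exportin that returns importin alpha to the cytoplasm, rose from 181.5 to 448 CPM (1.30, SE 0.05), close in size to its cargo KPNA2. RCC1, the chromatin-bound exchange factor that loads Ran with GTP, rose from 81.0 to 168.5 CPM (1.06, SE 0.05). XPOT, the tRNA exportin, fell from 606 to 308 CPM (-0.98, SE 0.04), close in size to XPO5. The members themselves and these lists were counted in the same fit, and no test of a shared change was made.

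In the mRNA export list 6 of 20 genes rose and 11 fell (median -0.30). That is 30% and 55%, where 35.4% and 35.8% of all entries were called higher and lower. PCID2, a subunit of the TREX-2 complex, fell from 216 to 82.1 CPM (-1.40, SE 0.05). NXF1, the main mRNA export receptor, rose from 27.2 to 61.9 CPM (1.19, SE 0.05), and the helicase gene DDX39A from 74.8 to 149.8 CPM (1.00, SE 0.05), while its paralogue DDX39B fell (-0.67, SE 0.05). DDX39B was named after its value was seen.

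Upstream sequence was read for the 40 members found in the RefSeq promoter table (GRCh38.p14). KPNA4, KPNA5, KPNA7, KPNB1, NUP43 and XPO7 had no entry. The 250 bases before each start were searched on both strands for the E-box CACGTG, a motif of helix-loop-helix factors, and for the E2F forms TTTCCCGC, TTTCGCGC, TTTGGCGC and TTTGCCGC. The E-box stood in 6 of the 40 members (15.0%), against 6.49% of all 27305 promoters in the table. Those promoters include genes not expressed here, and the share among the entries tested was not computed. The E-box was present in 4 of 21 members that rose and in 2 of 11 that fell. An E2F form stood in 1 member, IPO11 (2.50%, against 2.79% of all promoters). The windows with the E-box are shown because they belong to members of both directions, with the motif in capitals and up to 20 bases on each side, 5′ to 3′ on the strand of the gene. They lie at chr9:128947602-128947647 and chr9:128947649-128947694 (NUP188, plus), chr22:45163731-45163776 (NUP50, plus), chr13:49792723-49792768 (KPNA3, minus), chr11:9384494-9384539 (IPO7, plus), chr14:24188820-24188865 (IPO4, minus) and chr19:12723933-12723976 (TNPO2, minus).
NUP188, first site: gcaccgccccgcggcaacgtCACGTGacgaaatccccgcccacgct
NUP188, second site: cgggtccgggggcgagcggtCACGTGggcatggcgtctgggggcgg
NUP50: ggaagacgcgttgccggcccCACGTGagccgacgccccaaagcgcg
KPNA3: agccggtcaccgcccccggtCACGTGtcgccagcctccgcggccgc
IPO7: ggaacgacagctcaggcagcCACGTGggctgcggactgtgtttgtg
IPO4: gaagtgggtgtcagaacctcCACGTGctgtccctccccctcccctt
TNPO2: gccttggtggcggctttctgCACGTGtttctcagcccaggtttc
NUP188, NUP50, KPNA3 and IPO7 rose, and IPO4 and TNPO2 fell. NUP188 was the member with 2 E-boxes, starting 77 and 30 bases before the annotated start. A match is a string of letters and not a bound site, and NUP85 and KPNA2 held neither motif in this window.

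Some members share exon positions with another annotated gene, and since strand use in counting is not given, their values may include reads of that gene. In GENCODE 29 this held for 23 of the 42 tested members. There were 31 such pairs of a member and a neighbour, and in 12 the neighbour was tested too. Both genes were called in the same direction in 6 pairs and in opposite directions in 3, and in 3 at least 1 of them did not pass. Called in the same direction were ATF5 (1.53) with NUP62, PCMT1 (0.65) with NUP43, SH3GLB2 (0.54) with NUP188, CHRNA10 (1.88) with NUP98, RPAIN (-0.75) with NUP88 and POLR1C (-0.80) with XPO5, where values are the neighbour's log2 fold change. In opposite directions were RABEP1 (0.18) with NUP88, PGAP2 (-0.36) with NUP98 and REC8 (0.95) with IPO4. Their part in the members' values was not tested. NUP85, NUP205, NUP93 and KPNA2 share no exon position with another annotated gene. Copies elsewhere in the genome carry the names of 7 tested members, KPNA2, IPO5, IPO7, IPO8, TNPO1, NUP35 and NUP58, and reads may be split with them. POM121 and POM121C, near-identical genes in the list of other pore proteins, are uncertain for the same reason.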

How the data were processed

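RNA-seq of 6 HT1080 libraries, 3 WT and 3 PGK1_OE, was analysed from the deposited tables, with groups and replicate numbers from the titles. One deposited table gives raw counts per gene with no normalisation, and the other gives FPKM, made by the authors. The submitters' processing notes name fastp, HISAT and the build hg38. Which tools made the counts and the FPKM, and the strand setting, is not given in the sources used here. Counts were fitted in R 4.3.3 with edgeR 4.0.16 (filterByExpr, TMM, robust quasi-likelihood, group as the only term, two-sided), with Benjamini-Hochberg adjustment over 14322 entries, and an adjusted p under 0.05 was called. The SE of a log2 fold change was taken as its size over the square root of F. The fit was tested on simulated data in which far fewer genes changed than were called here. That test therefore does not cover a change this wide. FPKM were fitted with limma 3.58.1 on log2(FPKM + 1) after a filter at 1 FPKM in 3 libraries, and DESeq2 1.42.0 was an alternative. No library repeated another: the chi-square over degrees of freedom between libraries of a group was 7.67 to 14.6. Member counts ranged from 390 to 30825 per library for tested members.

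The members and lists were chosen with earlier results of these data known. Every member is named. Values per library are given for KPNA2, KPNB1, XPO1, NUP62, NUP98 and NUP153 and for the 6 largest rises and 6 largest falls that passed in each class, and of each pathway list the 3 genes with the smallest adjusted p are named. Coordinates and overlaps come from GENCODE 29 on GRCh38 by Ensembl identifier, which matched all 46 members. Motif counts use RefSeq promoters, upstream bases only. Protein features were not analysed here.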

Additional observations from a re-analysis of the deposited data

How the results depend on the processing

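The alternatives were RLE factors, unscaled library totals, a fit without PGK1, all entries with a count, entries at 1 CPM or more in 3 libraries, DESeq2, limma on log2(FPKM + 1), on log2(FPKM + 0.1) and without the FPKM filter, the replicate number as a block, each library left out in turn, and an adjusted p under 0.01. The counts of members called by class and direction, of the 4 lists and of all entries stayed within 1.5 times their values under all of these. The median of the receptor genes, 0.065, is small and moved to 0.020 with library totals, to 0.010 with log2(FPKM + 1) with and without the filter, to 0.011 with log2(FPKM + 0.1), and to between 0.041 and 0.092 with a library left out. The pore median, 0.48, was 0.377 with log2(FPKM + 1) with and without the filter and 0.415 with log2(FPKM + 0.1). The pore share of the members' summed FPKM was 29.5%, 26.8% and 29.2% in WT and 29.8%, 29.8% and 29.9% in PGK1_OE. Its mean was higher in PGK1_OE by 1.32 percentage points on FPKM and by 3.74 on raw counts, which are not divided by length. The FPKM difference was 0.487 without WT replicate 2 and 1.83 without WT replicate 1. It was 1.30 to 1.65 with each of the other 4 libraries left out in turn, so it rests largely on WT replicate 2. For single members, 689 of the refitted values kept direction and call, 9 lost the call (NUP98, NUP58 and KPNA4, each in the FPKM fits) and 16 changed sign, all for genes that did not pass. NUP42 was -0.0440 with library totals, -0.0449 with log2(FPKM + 1), -0.0477 with log2(FPKM + 0.1), and between -0.0661 and 0.0739 with a library left out. NUP35 was -0.0324 and -0.0339, and IPO11 -0.0072 and -0.00762, with log2(FPKM + 1) and log2(FPKM + 0.1). KPNA1 was between -0.0122 and 0.00499 with a library left out. The causes were not tested. With the replicate block 9943 entries were called in place of 10195, NUP42 was -0.000432 and no other member changed its call or sign. Deviations from the group means correlated at -0.013, -0.013 and 0.095 between same-numbered libraries. Between the other pairs they correlated at -0.06 to 0.07. These values cannot settle whether the numbers pair the libraries, and the labels do not say.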
